A study of Homo sapiens with 2 samples.

Results

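Chromosome 20 carried 782 of the 23450 PROX1 peaks in the deposited list, 334 on the short arm and 448 on the long arm. A peak was assigned to the short arm where its centre lay below 27 Mb on the hg18 build and to the long arm where it lay above. The list came from ChIP-seq, in which DNA bound by a protein is precipitated from fixed chromatin and sequenced, in SW480R, a subpopulation of the established human colorectal adenocarcinoma line SW480. The ChIP library was a pool of 3 independent immunoprecipitations with a goat antibody against PROX1 (5 µg, per the labels), and it was set against 1 library of input DNA from the same cells. With 1 library of either kind, the spread between replicates could not be measured. Intervals below cover counting error only and take neighbouring peaks as independent. How deeply either library was sequenced is not stated in the sources at hand. The peaks of chromosome 20 held 41600 ChIP tags (sequenced reads counted at a peak), 15836 on the short arm and 25764 on the long arm.

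Chromosome 20 was selected with its number of peaks per Mb and its share of high folds known, so its values against other chromosomes are descriptions without a test. The split fell in a stretch without peaks. The last short-arm peak, at 25271151 to 25271291, lay 1729 kb before it, with 20 tags and a fold of 20.05. The first long-arm peak, at 28205351 to 28205411, carried 22 tags at a fold of 22.05. Each peak belonged to the same arm when the split was moved to the boundary between bands p11.1 and q11.1.

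PROX1 is a homeodomain transcription factor that binds DNA and can repress or activate its targets. It directs the development of lymphatic vessels, liver and lens, and in colorectal tumours it is induced downstream of Wnt signalling. The short arm of chromosome 20 carries the Notch ligand gene JAG1, the bone morphogenetic protein gene BMP2 and the endoderm factor gene FOXA2. The long arm carries the genes for the survival protein BCL2L1, the kinases SRC and AURKA and the intestinal and hepatic factor HNF4A, and it is often gained in colorectal tumours. These genes are background on what each arm holds. No hg18 gene annotation was used here, so peaks were placed by position and cytogenetic band and were assigned to no gene.

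Both arms were rich in PROX1 peaks. Over sequence without assembly gaps, the short arm held 12.7 peaks per Mb (95% Poisson interval 11.4 to 14.2, 334 peaks in 26.3 Mb). The long arm held 13.5 peaks per Mb (12.3 to 14.8, 448 peaks in 33.2 Mb). The other autosomes together held 8.44 peaks per Mb. Among the 39 autosomal arms with at least 10 Mb of sequence, the long arm ranked 2 and the short arm ranked 3. Only 17q, at 15.2 peaks per Mb (14.2 to 16.2), lay above them. The next arms in order, 18p at 12.7 (10.9 to 14.6) and 12p at 12.6 (11.4 to 13.8), had intervals that overlapped those of both arms of chromosome 20. The median of the 37 other arms was 8.83 peaks per Mb and the lowest, 4q, was 3.81. With peaks whose edges lay within 10 kb counted as 1 place, the arms kept ranks 2 and 3, with 7.97 places per Mb on the long arm and 7.73 on the short arm.

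**Figure D1:**
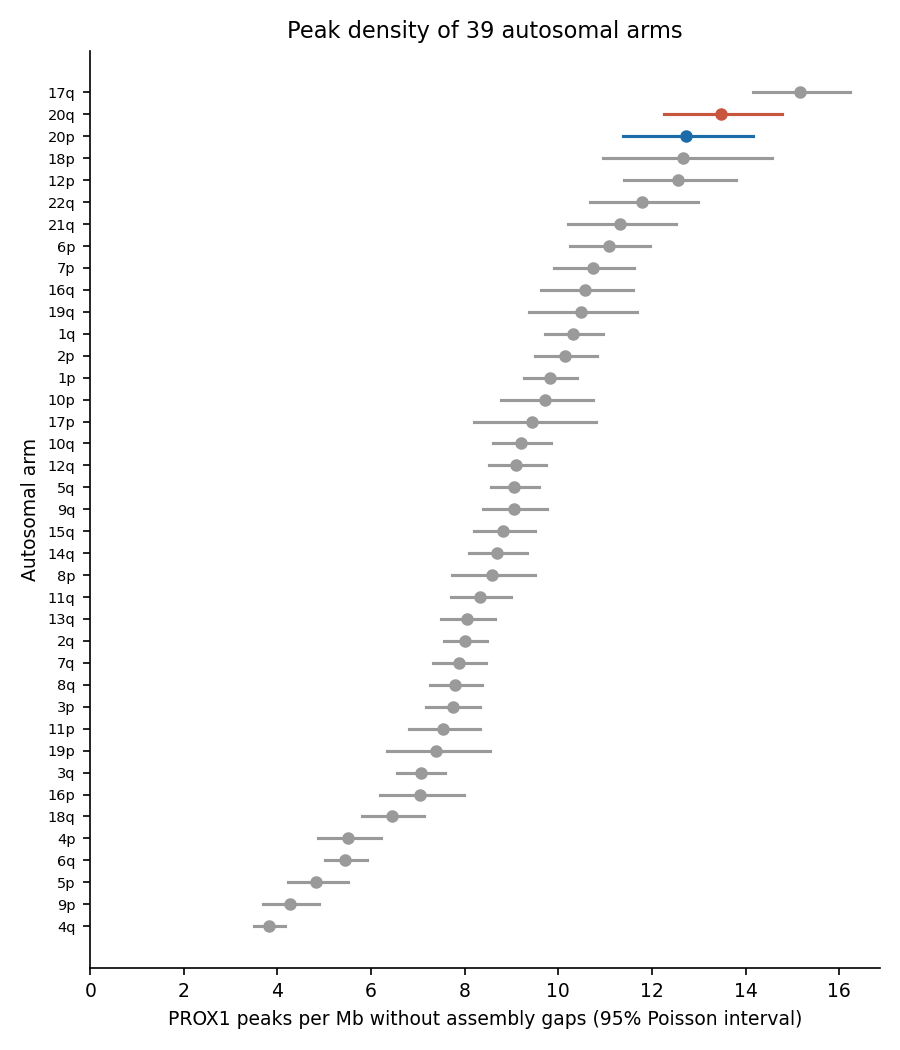
Peaks per Mb of sequence without gaps (x axis, bars are 95% Poisson intervals) for the 39 autosomal arms with at least 10 Mb (y axis), with the short arm of chromosome 20 in blue and the long arm in red. The arms of chromosome 20 stand at 12.7 and 13.5, below 17q at 15.2 and above the other 36 arms, and their intervals overlap those of several neighbours.

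A difference in density between the arms of chromosome 20 was not detected. The long arm held 1.06 times the peaks per Mb of the short arm (95% interval 0.917 to 1.22, exact binomial test against length without gaps, two-sided, adjusted p = 0.857). This was the first of 4 comparisons of the arms, and each p was adjusted over the 4 by the method of Benjamini and Hochberg. In 17 chromosomes with 2 arms of at least 10 Mb, the ratio of long to short arm ran from 0.492 on chromosome 6 to 2.13 on chromosome 9. On chromosome 20 both arms were high, whereas 17q and 17p differed 1.61 times.

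Strong peaks, defined by a fold over input of at least 26.06 (2 times the lowest fold in the list), did not differ detectably in share between the arms. They made up 34.7% of the short arm (116 of 334, exact binomial interval 29.6 to 40.1) and 35.7% of the long arm (160 of 448, 31.3 to 40.3). On the other autosomes the share was 30.3%, and of the 37 other arms 3 lay above the short arm and 1 above the long arm. The difference between the arms was 0.98 percentage points (interval -5.80 to 7.67, Fisher's exact test, two-sided, adjusted p = 1). The median fold was 20.05 on both arms and 19.05 on the other autosomes. For a peak at the lowest input the fold restates its tag count, as described below, so a strong peak there is one with more tags. Folds of at least 100 were listed for 4 short-arm peaks (1.20%, interval 0.327 to 3.04) and 9 long-arm peaks (2.01%, 0.923 to 3.78), against 0.944% on the other autosomes.

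Tag counts set chromosome 20 further from the other autosomes than folds did. The median short-arm peak held 30 tags, with quartiles of 17 and 53 and extremes of 13 and 277. The median long-arm peak held 34 tags, with quartiles of 18 and 71 and extremes of 13 and 532. Across the other autosomes the median was 25 tags, with quartiles of 17 and 43. No other arm of the 37 had a median above 30, but 19q and 21q equalled the short arm at 30. Their upper quartiles, 67 tags on 19q and 66 on 21q, lay above that of the short arm and below that of the long arm. A raised upper range was thus not particular to chromosome 20. The lower quartiles of both arms of chromosome 20 were close to that of the other autosomes, and the separation lay in the upper part of the range. Peaks with 100 or more tags made up 12.9% of the short arm (43 peaks, interval 9.48 to 16.9) and 14.3% of the long arm (64 peaks, 11.18 to 17.9). The share on the other autosomes was 5.31%. Peaks with 50 or more tags made up 28.4% of the short arm (23.7 to 33.6), 36.8% of the long arm (32.4 to 41.5) and 20.7% of the other autosomes.

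**Figure D2:**
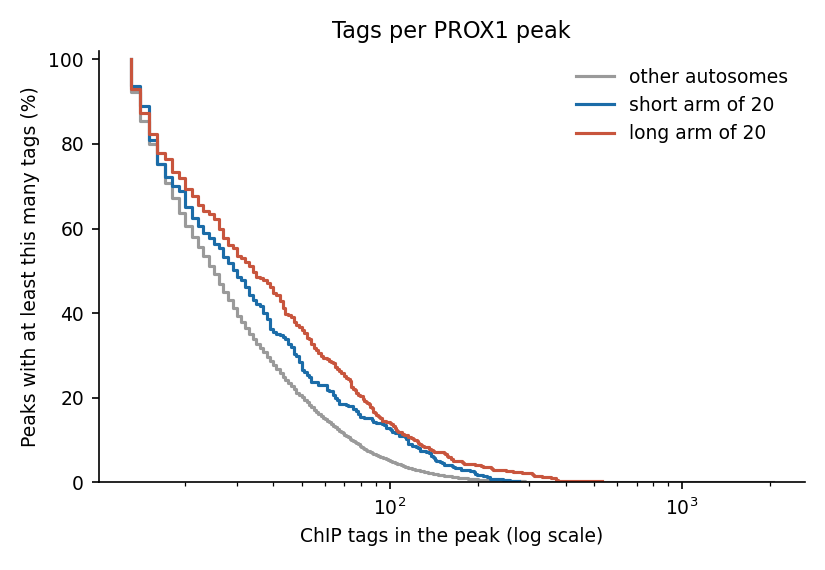
Share of peaks (y axis, %) that hold at least the number of ChIP tags on the x axis (log scale), for the short arm of chromosome 20 (blue), its long arm (red) and the other autosomes (grey). The curves start together at 13 tags and part above about the lower quartile, so that 12.9% and 14.3% of the arms' peaks reach 100 tags against 5.31% elsewhere.

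Input DNA at the peaks was also higher on chromosome 20. Each peak's input tags were worked out from its ChIP tags and its fold, and 1 is the lowest value that this inferred input can take. At that value the fold is the tag count times 1.00, so it restates the tags. The inferred input was below 2 at 72.8% of short-arm peaks, 63.6% of long-arm peaks and 77.4% of peaks on the other autosomes. Where the value is not whole, it is a ratio and not a count of input tags. At least 5 inferred input tags lay under 36 short-arm peaks (10.8%, interval 7.66 to 14.6) and 57 long-arm peaks (12.7%, 9.78 to 16.2), against 4.24% on the other autosomes. These were the highest shares of the 39 arms, followed by 19q at 10.6%. At least 2 lay under 27.2% of the short arm (22.5 to 32.4) and 36.4% of the long arm (31.9 to 41.0), against 22.6%. For this lower limit, 4 of the 37 other arms lay above the short arm and 0 above the long arm. The fold divides by input, so a place with more input needs more ChIP tags to be listed.

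Tag counts were higher over more inferred input on both arms and elsewhere, as the lowest fold of the list requires. At an inferred input below 2, the median peak held 21 tags on each arm (243 short-arm and 285 long-arm peaks) and 20 on the other autosomes. At 5 or more it held 130 tags on the short arm, 136 on the long arm and 114 on the other autosomes. Strong peaks made up 38.7% of the short arm and 38.6% of the long arm at an inferred input below 2, against 32.9% elsewhere. Restricted to those peaks, the density was 9.25 per Mb on the short arm (8.13 to 10.5), 8.57 on the long arm (7.61 to 9.63) and 6.54 on the other autosomes (6.44 to 6.64). More copies of a stretch of chromosome in both libraries and more occupied sites cannot be told apart from these values.

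**Figure D3:**
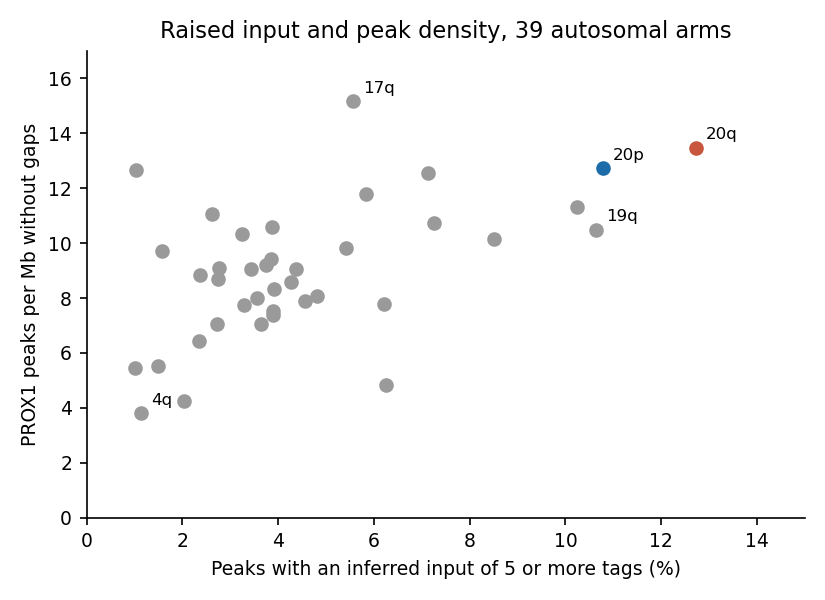
Peaks per Mb without gaps (y axis) against the share of peaks over at least 5 inferred input tags (x axis, %), 1 point for each of the 39 autosomal arms. The short arm (blue) and the long arm (red) of chromosome 20 lie farthest to the right, at 10.8% and 12.7%, while 17q has the highest density at a lower share of raised input.

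Pale bands of chromosome 20 held more PROX1 peaks per Mb than stained bands on each arm. Pale bands are the gene-rich, early-replicating parts of a chromosome, and stained bands are poorer in genes. On the short arm, the 4 pale bands held 16.6 peaks per Mb (244 peaks) and the 3 stained bands 8.18 (90 peaks). The 6 pale bands of the long arm held 14.9 peaks per Mb (227 peaks) and its 5 stained bands 12.4 (220 peaks). Over the other autosomes the values were 10.5 and 6.91. The stained bands of the long arm therefore lay above the pale bands of the other autosomes in peaks per Mb. Whether the arms differ in this contrast was not tested.

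Of the 20 bands, 5 held more than 18 peaks per Mb. On the short arm these were p12.2, the band of JAG1, with 21.7 peaks per Mb (interval 16.7 to 27.8, 63 peaks), p11.21, the band of FOXA2, with 18.8 (64 peaks), and p11.23 with 18.2 (62 peaks). Long-arm bands above it were q13.31, with 24.0 (16.8 to 33.2, 36 peaks), and q13.13, with 21.8 (17.1 to 27.3, 74 peaks). The lowest bands outside the centromere were q13.11, which is 0.5 Mb long and held 1 peak, p12.3, the band of BMP2, with 7.25 (29 peaks), and p12.1 with 7.97 (47 peaks). The centromeric bands held 0 peaks on the short arm and 1 on the long arm, over 0.568 and 0.234 Mb of assembled sequence. The bounds of these intervals overlap among the fullest bands, so their order is not resolved.

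**Figure D4:**
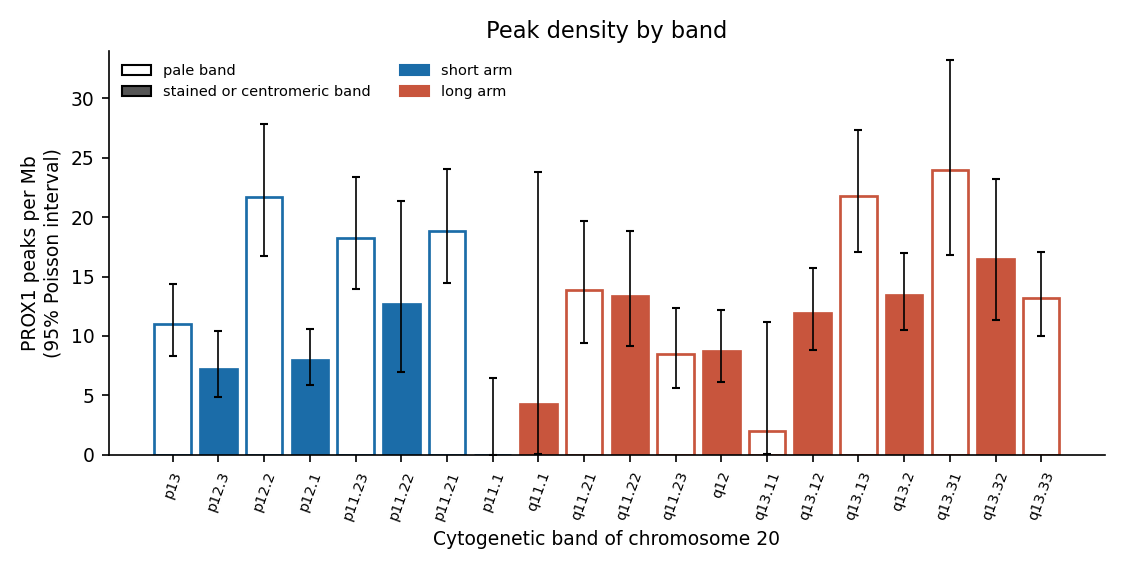
Peaks per Mb without gaps (y axis, 95% Poisson intervals) in each hg18 band of chromosome 20 (x axis, short-arm end at the left), with pale bands open and stained or centromeric bands filled. On the short arm (blue) the open bars other than p13 stand above the filled ones, while on the long arm (red) filled bands such as q13.32 at 16.5 stand above open ones such as q11.23 at 8.49.

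Pooled over neighbouring bands, the short-arm group next to the centromere held more peaks per Mb, and on the long arm the group farther from it, although single bands did not follow this order. Bands p11.23 to p11.21 held 17.7 peaks per Mb (14.9 to 20.9, 140 peaks), against 10.9 (9.42 to 12.6, 194 peaks) in p13 to p12.1. Bands q13.11 to q13.33 held 15.2 (13.6 to 16.9, 322 peaks), against 10.6 (8.81 to 12.6, 125 peaks) in q11.21 to q12. These groups of bands were formed after the values were seen. The densest short-arm band, p12.2, lay in the sparser group, while q13.11 lay in the denser long-arm group with 1 peak, below q11.21 (13.9 per Mb) in the sparser one. Peaks over at least 5 inferred input tags made up 17.1% of p11.23 to p11.21 and 6.19% of p13 to p12.1. For the long arm the share was 11.8% in the denser group and 15.2% in the sparser one. Single bands followed these group orders in part. On the short arm the share was 0% in p12.3 and 6.38% in p12.1, against 11.3% in p11.23 and 26.6% in p11.21. Other short-arm bands did not follow, with 3 of 63 peaks in dense p12.2, 6 of 55 in sparser p13 and 0 of 14 in p11.22. On the long arm it was 17.1% in sparse q12, 13.9% in dense q13.31 (5 of 36) and 7.41% in sparser q11.23 (2 of 27). Whether the share goes with density across bands was not tested. Single bands ranged from 0 of 29 peaks with raised input in p12.3 to 17 of 64 in p11.21, and 13 of 58 peaks had it in q13.33.

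In windows of 1 Mb, few stretches of chromosome 20 were empty and none was as full as the fullest window elsewhere. The median window held 10.5 peaks on the short arm (26 windows, range 2 to 30) and 12 on the long arm (33 windows, range 0 to 31), counting windows with at least 0.5 Mb of assembled sequence. On the other autosomes the median was 6, the range 0 to 121, and 14.4% of 2633 windows were empty. On chromosome 20, 0 short-arm windows and 1 long-arm window were empty. Windows with 20 or more peaks numbered 6 on the short arm (23.1% of 26) and 5 on the long arm (15.2% of 33). Their share on the other autosomes was 10.1%. These windows held 43.7% of the short-arm peaks and 27.9% of the long-arm peaks, and the matching share elsewhere was not computed. Window counts were less uneven on chromosome 20, with a variance over mean of 4.48 on the short arm and 3.92 on the long arm. On the other autosomes it was 9.39.

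The fullest windows lay in the dense bands. On the short arm they were 19 to 20 Mb with 30 peaks, 23 to 24 Mb with 29 and 10 to 11 Mb with 25. The window at 23 to 24 Mb had the highest median among them, 65 tags, and raised input, of 5 or more, lay under 12 of its 29 peaks. On the long arm, 47 to 48 Mb and 55 to 56 Mb held 31 peaks each, followed by 48 to 49 Mb with 22. Strong peaks numbered 14 of 31 at 47 to 48 Mb and 12 of 31 at 55 to 56 Mb, and 8 of 30 at 19 to 20 Mb. The window at 56 to 57 Mb held 12 strong peaks among 20.

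**Figure D5:**
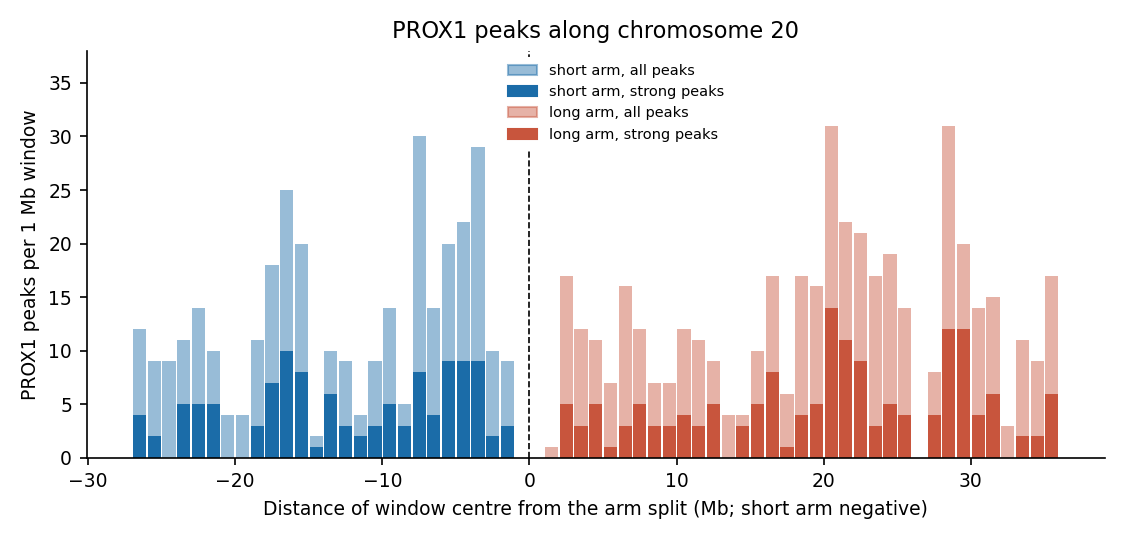
Peaks in each 1 Mb window (y axis; pale bars are all peaks, dark bars strong peaks) by distance of the window centre from the split between the arms (x axis, Mb). The fullest windows hold 30 peaks on the short arm (blue) and 31 on the long arm (red), and the last window at the right is shorter than 1 Mb and still holds 17.

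The longest stretches without a peak were short of 1 Mb on the short arm. They lay at 12106411 to 12958751 (852 kb) in p12.1 and at 18808151 to 19557371 (749 kb) in p11.23, the band that also held the fullest short-arm window. The longest of the long arm ran from 52669411 to 54229811 (1560 kb) in q13.2, and the next from 59445351 to 60358591 (913 kb) in q13.33. Each arm had 7 stretches over 500 kb outside gaps and centromeric bands.

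Most peaks on both arms had another peak close by. Another peak stood within 10 kb of 58.1% of short-arm peaks (194 of 334, interval 52.6 to 63.4) and 62.3% of long-arm peaks (279 of 448, 57.6 to 66.8), against 56.6%. The difference between the arms was 4.19 percentage points (interval -2.71 to 11.102, Fisher's exact test, two-sided, adjusted p = 0.857). At a distance of 1 kb or less this held for 35.6% of the short arm (30.5 to 41.0) and 40.4% of the long arm (35.8 to 45.1), against 32.9%. The other-autosome shares lay within both short-arm intervals and below both long-arm intervals. Such a share rises with peaks per Mb, which were higher on both arms than on the other autosomes. Whether peaks were closer together than their density gives was not tested. The median distance to the next peak was 21860 bp on the short arm, 19960 bp on the long arm and 26080 bp on the other autosomes. In share of peaks with a neighbour within 10 kb, 12 of the 37 other arms lay above the short arm and 4 above the long arm. Within 1 kb, 5 lay above the short arm and 1 above the long arm.

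Joining peaks within 10 kb gave 203 places on the short arm and 265 on the long arm. Single peaks made up 140 and 169 of these. Runs of 2 to 4 peaks numbered 52 and 84, and runs of 5 or more numbered 11 and 12, with 18.9% and 15.8% of the arm's peaks. No run on chromosome 20 exceeded 10 peaks, while the largest run on the other autosomes held 41. Of the single peaks of the long arm 24.3% were strong (interval 18.01 to 31.4), against 41.8% in runs of 2 to 4 (35.04 to 48.8) and 45.1% in runs of 5 or more (33.2 to 57.3). The short-arm shares were 32.9% (25.2 to 41.3), 34.4% (26.3 to 43.1) and 39.7% (27.6 to 52.8), with intervals that overlapped throughout. The difference between the arms in this trend was not tested. Median tags in the same classes were 26, 40 and 54 on the long arm and 27, 30 and 33 on the short arm.

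The largest run of the chromosome lay at 43833251 to 43845311 in q13.12, with 10 peaks and 605 tags over 12.06 kb. Its peaks at 43841111 to 43841231 and 43841591 to 43841811 held 136 and 128 tags at folds of 136.34 and 128.32, both at an inferred input of 1. The other 8 held 19 to 74 tags, and 6 of the 10 were strong. Joined within 1 kb, the 10 peaks made 4 places, so several sit side by side. In q11.21, the band of the survival gene BCL2L1, a run at 29747771 to 29773751 held 8 peaks with 981 tags over 25.98 kb. Among them was the peak with the highest fold on the chromosome, 264.66, at 29756091 to 29756231. A neighbour in the run, at 29764231 to 29764331, had more tags (307) at a fold of 43.97, which gives an inferred input of 7. The third, at 47855331 to 47873711 in q13.13, held 7 peaks with 450 tags, of which the last, at 47873671 to 47873711, had a fold of 126.31.

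The 3 largest short-arm runs had lower highest folds than the 3 long-arm runs above. This did not extend to smaller runs. The next long-arm run, of 6 peaks from 55695911, reached 34.08, and a short-arm run of 5 from 22262951 reached 87.22. The run at 19897151 to 19910131 in p11.23 held 8 peaks with 476 tags, 2 of them strong, and its highest fold was 34.08. At 23070471 to 23084991 in p11.21, 7 peaks held 937 tags. Their median was 127 tags, 2 were strong, the highest fold was 44.11 and the inferred input reached 11. At 10465271 to 10482211 in p12.2, 7 peaks held 271 tags with a median of 33. There 5 of 7 were strong, the highest fold was 50.63, and the inferred input did not exceed 2. Of these 3 short-arm runs, the one with the most tags also held the peak with the highest inferred input, a value that is itself worked out from tags.

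The peaks with the most tags and those with the highest folds were different peaks on each arm. The 5 short-arm peaks with the most tags held 216 to 277 tags at folds of 13.53 to 30.85 and inferred inputs of 9 to 16, and 1 of the 5 was strong. The 5 with the highest folds held 97 to 194 tags at folds of 97.24 to 114.28 and inferred inputs of 1 to 1.76. On the long arm, the 5 with the most tags held 370 to 532 tags at folds of 13.59 to 106.67, and their inferred inputs ran from 5 to 37.99. The 5 with the highest folds held 128 to 264 tags at folds of 128.32 to 264.66 and inferred inputs of 1 to 1.15. On both arms 0 of the 5 peaks were shared between these choices. Where the inferred input was 1, the fold restates the tag count and does not measure enrichment apart from it.

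The long-arm peak at 37594411 to 37594531, in q12, had the most tags of the chromosome, 532, and ranked 11 among nuclear peaks by tags. It combined them with a fold of 106.67 at an inferred input of 5. The next, at 60358591 to 60358631 in q13.33, held 515 tags at a fold of 13.59, near the lowest fold listed, which gives an inferred input of 37.99. The remaining members were at 36827151 to 36827291 (377 tags, fold 29.07), 47645831 to 47646011 (372 tags, fold 16.66) and 31841251 to 31841291 (370 tags, fold 37.09). By fold, 29756091 to 29756231 was followed by 58336511 to 58336651 in q13.33 (153 tags, fold 153.38) and 34138271 to 34138431 in q11.23 (162 tags, fold 141.35). The latter belonged to a run of 5 peaks within 2.40 kb.

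Among short-arm peaks, that at 23070951 to 23070991 in p11.21 had the most tags, 277, at a fold of 30.85 over 9 inferred input tags. It was followed by 3740411 to 3740451 in p13 (258 tags, fold 25.86), 4826991 to 4827131 in p13 (245 tags, fold 20.47), 16458891 to 16459011 in p12.1 (220 tags, fold 23.86) and 1344791 to 1344831 in p13 (216 tags, fold 13.53). The highest short-arm fold, 114.28, was at 19665831 to 19665871 in p11.23 with 114 tags. Next came 4064371 to 4064471 in p13 (116 tags, fold 113.28), 16456851 to 16456991 in p12.1 (194 tags, fold 110.27), 21130971 to 21131111 in p11.23 (108 tags, fold 108.27) and 17650831 to 17650891 in p12.1 (97 tags, fold 97.24). The p12.1 peaks at 16456851 and 16458891 lay 1.90 kb apart, so that a high fold and a higher tag count stood in neighbouring peaks. Their inferred inputs, 1.76 and 9.24, were not whole numbers.

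The share of wide peaks, of 80 bp or more, did not differ detectably between the arms. They made up 32.0% of the short arm (107 of 334, interval 27.1 to 37.3) and 31.9% of the long arm (143 of 448, 27.6 to 36.5), against 27.8% on the other autosomes. In this share 3 of the 37 other arms lay above the short arm and 3 above the long arm. The difference was -0.12 percentage points for the long arm minus the short arm (interval -6.76 to 6.41, Fisher's exact test, two-sided, adjusted p = 1). The median width was 40 bp on both arms. Among wide long-arm peaks 48.3% were strong, against 34.1% of those 40 bp wide and 9.43% of the 53 peaks 60 bp wide. On the short arm these shares were 38.3%, 33.9% and 29.8%. The widest peaks spanned 400 bp on the long arm, at 51949391 to 51949791 (91 tags, fold 22.81) and 56827111 to 56827511 (90 tags, fold 72.18), and 380 bp on the short arm, at 16953271 to 16953651 (100 tags, fold 21.05).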

How the data were processed

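The authors deposited 1 peak list, PROX1 ChIP against input DNA. Per the submitters' processing notes, positions are on hg18. Aligner, caller and cutoff were not given in the sources used here. Without a header, columns were read from the values. Deposited tag counts are whole and unnormalized, at least 13 per peak. The deposited fold is a ratio of ChIP to input. The deposited p-value per peak, at most 0.00099, may be a p or a q and was not used. Each fold is 13.03 or more. Folds and tag counts are the authors' own and describe peaks within this list only. Coordinates are as listed, and no header tells 0-based from 1-based starts.

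Input tags were inferred as tags times 1.00 (1.00248 unrounded) divided by fold, which gave a whole number within 0.02 for 89.9% of chromosome 20 peaks. Values of 2 and 5 or more were read with the same tolerance. Chromosome lengths came from GenomeInfoDb 1.38.1, contig placements from IRanges 2.36.0 and hg18 bands from circlize 0.4.16 (R 4.3.3). Statistics used Python 3.11.15, numpy 2.4.6, pandas 2.3.3 and scipy 1.17.1, and plots matplotlib 3.10.9. Arms other than those of chromosome 20 were split at their band boundary. The 4 arm comparisons used an exact binomial test or Fisher's exact test, adjusted by Benjamini-Hochberg at 0.05, with exact Poisson, Clopper-Pearson and Newcombe intervals at 95%. The tests were tested on simulated data with independent peaks, which does not show how they behave for clustered peaks. Named peaks, per arm, were the 5 with the most tags, the 5 with the highest fold, the 3 largest runs, the 3 fullest windows, the widest peak and the 2 longest stretches without a peak. The members and lists were chosen with earlier results of these data known. Alternatives covered length, split, threshold, merging, windows and input.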

Additional observations from a re-analysis of the deposited data

How the results depend on the processing

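None of the 4 comparisons of the arms passed under any of 25 alternatives after adjustment. The lowest adjusted p was 0.111 (Fisher's exact test, unadjusted p = 0.0278), for neighbours among strong peaks. There the long arm had 50.6% and the short arm 37.1%, a difference of 13.6 percentage points (unadjusted interval 1.68 to 24.8). The ratio of long-arm to short-arm density stayed between 1.02 and 1.09, except at 0.926 among peaks with an inferred input below 2, an alternative chosen after seeing the data. The difference in strong peaks, long minus short arm in percentage points, changed sign at a fold of 1.5 times the lowest (-1.59), with the strongest peak of each run within 1 kb (-1.89) or 10 kb (-2.45), without the windows at 19 and 55 Mb (-0.035) and at an inferred input below 2 (-0.087). With strength by tags it was 7.65 points (unadjusted interval 0.609 to 14.5, Fisher's exact test, unadjusted p = 0.0351, adjusted p = 0.140, range over its alternatives 0.140 to 1). The difference in neighbours within 10 kb was -3.89 points at an inferred input below 2. The cause of these changes was not tested. The tests see counting error only, because replicates were pooled before sequencing, and clustered peaks make their p-values too small. Library depth limits which sites reached the list and is not known here. No paired analysis was possible because there is 1 library of each kind.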
